A study of Mus musculus with 8 samples.

Results

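This section describes the genes of glycolysis and of the pentose phosphate pathway in MBL2 cells treated with talazoparib, romidepsin or both. Glycolysis breaks glucose down to pyruvate in the cytosol and yields ATP and NADH, and lactate dehydrogenase can turn the pyruvate into lactate and restore NAD+. The pentose phosphate pathway branches off at glucose 6-phosphate. Its oxidative branch makes NADPH, and its non-oxidative branch interconverts sugar phosphates and supplies ribose 5-phosphate for nucleotides. Many proliferating lymphoid and tumour cells take up much glucose and release lactate, and several of these genes are known targets of the transcription factors HIF-1 and Myc. A list of 33 genes was taken by symbol, from glucose and lactate transporters to transaldolase. All 33 were found among the 12260 genes of the deposited table and all passed the filter on low counts that left 11934 genes for testing.

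MBL2 is a cell line from a T-cell lymphoma of C57BL/6 mice induced by Moloney murine leukaemia virus. Talazoparib blocks PARP enzymes, which act in the repair of DNA breaks, and romidepsin blocks histone deacetylases. The groups were talazoparib with romidepsin (the combination), talazoparib, romidepsin (spelled romidespin in its labels) and an untreated control, with 2 RNA-seq libraries each and RNA taken 24 h after a single dose. No dose is stated in the labels. Nor do they tell whether both libraries of a group stem from different cultures. The p-values therefore rest on the spread among these libraries alone, which may be technical.

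Total counts ran from 28419156 to 38913292 reads per library, and no member had fewer than 11 reads in any library. Of 14 T-cell markers, 11 were tested, and their summed level was 3231 to 3325 CPM (counts scaled to a common library size) in the 4 libraries with talazoparib and 3468 to 3645 CPM in the 4 without. Cd3e and Lck were among the tested ones, and every gene of the deposited table has a read in all 8 libraries. Trac, Cd8a and Cd8b1 were not analysed here. The tested myeloid markers (3 of 7) summed to 38.0 to 52.2 CPM with talazoparib and 15.05 to 24.4 CPM without. The B-cell marker Cd79b, the only tested one of 5, stood at 9.01 to 12.3 CPM with talazoparib and 4.15 to 5.49 CPM without. The tested fibroblast markers (3 of 6) summed to 99.8 to 159 CPM with talazoparib and 63.8 to 74.4 CPM without, and the erythroid markers (2 of 5) to 6.37 to 7.58 CPM with and 4.74 to 5.75 CPM without. Lyz2, Itgam, Cd68, Cd79b, Pdgfra, Pdgfrb and Epor rose with talazoparib in the test described below, as did the T-cell genes Cd4 and Cd247, while Cd3d and Thy1 fell. Of these, Epor lost its call in 7 of 14 alternatives, Cd247 in 5 and Cd68 in 4, each time with a library left out. Defining markers not analysed here included Adgre1, Csf1r, Mpo and Elane for myeloid cells, Cd79a, Ms4a1 and Pax5 for B cells, Col1a2, Col3a1 and Dcn for fibroblasts, and Hba-a1 and Hbb-bs for erythroid cells. The part of these markers in the results was not tested.

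Averaged over both romidepsin arms, talazoparib went with lower transcript levels of 18 of the 33 genes. Over all tested genes 13.7% fell and 16.5% rose in that test. Tested without romidepsin, 7 of the 33 fell, where 4.64% of all genes fell and 6.43% rose. Together the 33 genes took 3.15% and 2.91% of all reads in the combination libraries and 3.39% and 2.55% in the talazoparib libraries, against 4.13% and 4.70% with romidepsin and 4.40% and 3.84% in control. All 4 libraries with talazoparib lay below all 4 without. Library preparation measures shares of RNA, so a smaller share cannot be told apart from more RNA of other genes, and in bulk RNA fewer cells of a type cannot be told apart from less RNA per cell. Reads of Rn45s, a ribosomal precursor that poly(A) selection should remove, made up 0.520% and 0.394% of the total in the talazoparib libraries. At 0.183% and 0.172% in the combination libraries they lay within the 0.135% to 0.235% of the 4 libraries without talazoparib.

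The members span a wide range of abundance. On the FPKM scale, which corrects for transcript length and so allows genes to be set side by side, 7 members averaged over 1000 in control. They were Gapdh, Aldoa, Eno1, Ldha, Pkm, Pgk1 and Gpi1, all enzymes of the main route from glucose 6-phosphate to lactate. Gapdh, glyceraldehyde-3-phosphate dehydrogenase, stood at 2163 and 2120 FPKM in the combination, 2475 and 1746 with talazoparib, 3012 and 3603 with romidepsin and 3538 and 2757 in control. At the other end Aldoc, Eno2 and Slc16a3 averaged below 1 FPKM in control. The pentose phosphate genes lay between, from Rpia at 24.0 and 26.6 FPKM in the control libraries to Tkt at 261 and 274 FPKM.

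**Figure D1:**
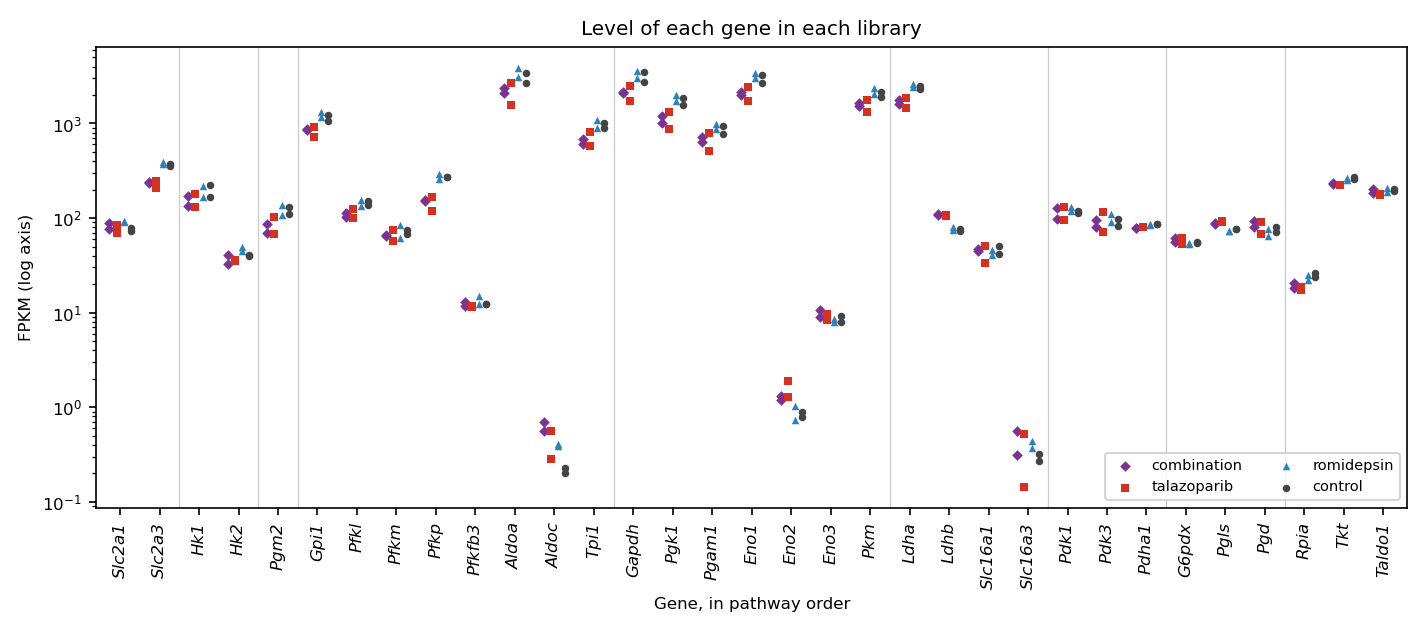
FPKM (log axis) of the 33 genes in pathway order, from glucose transporters on the left to transaldolase on the right; each point is a library and the grey lines separate the steps. The abundant enzymes of the main route reach 3866 FPKM (Aldoa, romidepsin), and the combination and talazoparib points of Gapdh, Pgk1, Eno1, Pkm and Ldha lie under their romidepsin and control points; for Aldoa, talazoparib 1 (2677) is level with control 2 (2675).

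To ask what talazoparib did over both romidepsin arms, the mean log2 difference of talazoparib against control and of the combination against romidepsin was tested in edgeR's quasi-likelihood fit over all 8 libraries, with Benjamini-Hochberg adjustment over all tested genes and a threshold of 0.05. By this test 18 of the 33 members fell and 2 rose, while 13 did not pass. Over all 11934 genes 13.7% fell and 16.5% rose. The median log2 fold change was -0.32 over the members and -0.00076 over all genes tested. In CPM, 19 members were lower in all 4 libraries with talazoparib than in any of the 4 without, and 3 were higher, where 15.8% and 17% of all genes had these positions. The falls ran from 0.19 to 0.99 on the log2 scale, with adjusted p of 0.000334 to 0.04999 for the 20 called members. Of these, 14 kept their call under all 14 alternatives tried: Slc2a3, Hk2, Gpi1, Pfkl, Pfkp, Tpi1, Gapdh, Pgk1, Eno1, Pkm, Ldha, Ldhb, Rpia and Tkt.

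**Figure D2:**
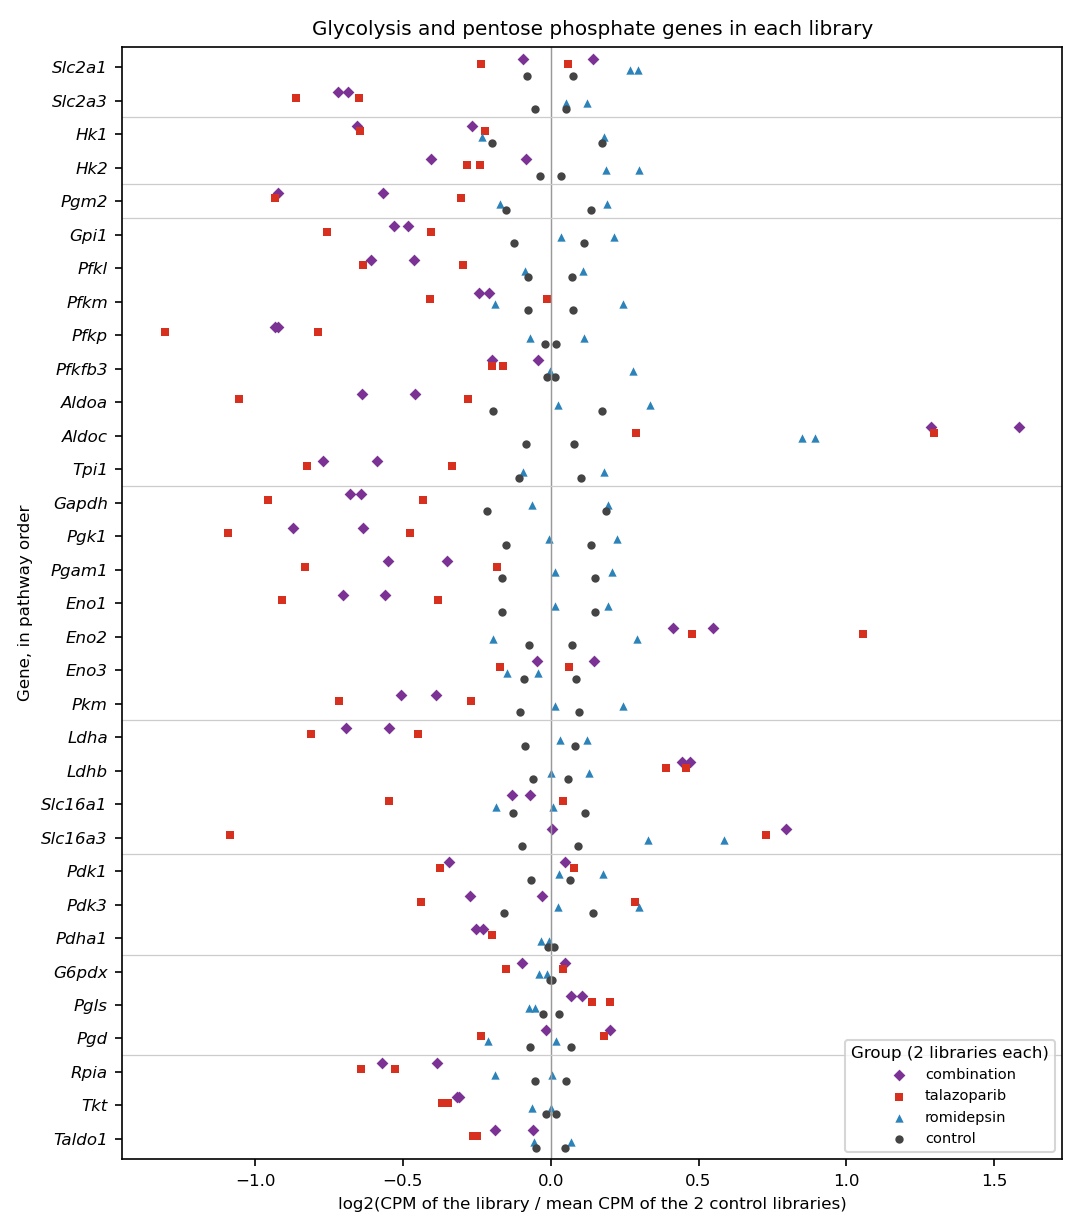
For each of the 33 genes in pathway order, the log2 ratio of each library's CPM to the mean CPM of the 2 control libraries; marker and colour give the group. From Gpi1 to Ldha the combination and talazoparib points of the abundant enzymes lie left of all romidepsin and control points, whereas Ldhb lies right and G6pdx and Pgd overlap.

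The promoters of 4 members are shown, picked by their values in the averaged test. Ldha and Ldhb, whose products are the alternative subunits of lactate dehydrogenase, moved in opposite directions. Pfkp had the largest fall, and Pgk1 the largest fall among enzymes after aldolase. Each sequence runs 5′ to 3′ on the gene's strand from 250 bases before to 50 after the start site, from RefSeq on GRCm38.p6. Capitals mark the E-box CACGTG, the HIF core letters ACGTG or GCGTG, and the GC box GGGCGG, on either strand. Each CACGTG also holds ACGTG on both strands.
Ldha (chr7:46845554-46845853, plus strand): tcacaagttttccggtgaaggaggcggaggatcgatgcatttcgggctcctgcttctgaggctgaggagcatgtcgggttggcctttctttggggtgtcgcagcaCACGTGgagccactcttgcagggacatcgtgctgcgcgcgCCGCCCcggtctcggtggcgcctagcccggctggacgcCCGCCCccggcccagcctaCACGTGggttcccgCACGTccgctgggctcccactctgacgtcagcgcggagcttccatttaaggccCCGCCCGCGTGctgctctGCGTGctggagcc
Ldhb (chr6:142507908-142508207, minus strand): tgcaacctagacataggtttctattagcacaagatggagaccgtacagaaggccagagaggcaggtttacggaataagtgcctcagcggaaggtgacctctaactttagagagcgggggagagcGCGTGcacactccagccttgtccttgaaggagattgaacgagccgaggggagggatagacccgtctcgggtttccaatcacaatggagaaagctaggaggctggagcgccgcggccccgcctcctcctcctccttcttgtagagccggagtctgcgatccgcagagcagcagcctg
Pfkp (chr13:6648722-6649021, minus strand): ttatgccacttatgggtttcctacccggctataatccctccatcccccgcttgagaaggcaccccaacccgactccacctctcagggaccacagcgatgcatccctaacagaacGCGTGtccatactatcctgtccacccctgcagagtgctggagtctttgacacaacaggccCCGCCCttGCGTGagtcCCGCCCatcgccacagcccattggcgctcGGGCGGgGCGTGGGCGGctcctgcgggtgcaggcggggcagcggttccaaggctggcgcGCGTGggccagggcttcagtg
Pgk1 (chrX:106186850-106187149, plus strand): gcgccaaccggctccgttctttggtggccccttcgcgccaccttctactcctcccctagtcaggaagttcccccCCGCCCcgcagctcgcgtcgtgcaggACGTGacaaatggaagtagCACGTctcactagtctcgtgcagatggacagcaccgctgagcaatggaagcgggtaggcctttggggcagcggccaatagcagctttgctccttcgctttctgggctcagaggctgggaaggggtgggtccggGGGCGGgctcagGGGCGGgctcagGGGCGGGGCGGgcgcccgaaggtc

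RefSeq gives Ldha 2 windows, of which the upstream one is shown; the other (chr7:46846832-46847131) held neither CACGTG nor GGGCGG. The Ldha window shown held CACGTG at 2 places and GGGCGG at 3, and the Ldhb window held neither and the HIF core letters once. The Pfkp window held GGGCGG 4 times and the Pgk1 window 5 times. Promoters of 32 members were in the table, and Slc2a3 was the member without one. Of the 46 windows of these 32 genes, 80.4% held ACGTG or GCGTG, 60.9% GGGCGG and 8.70% CACGTG. Over the 12087 windows of genes in the test the shares were 61.6%, 62.0% and 10.1%, and over all 32851 windows 43.8%, 35.7% and 7.15%. A match is a run of letters and not a shown binding site.

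Glucose enters these cells through facilitated transporters. Slc2a3 (gene ID 20527, chromosome 6, 122727809 to 122802363), which encodes the high-affinity transporter GLUT3, stood at 933 and 911 CPM in the combination, 825 and 958 with talazoparib, 1636 and 1555 with romidepsin and 1554 and 1448 in control. The 4 libraries with talazoparib were all below the others, with a gap larger than the spread within any group. Its log2 fold change was -0.77 ± 0.07 (SE, adjusted p = 0.000334), the smallest adjusted p among the members. Slc2a1, which encodes GLUT1, did not pass (adjusted p = 0.188). Its libraries overlapped, at 226 and 192 CPM in the combination, 213 and 174 with talazoparib, 246 and 251 with romidepsin and 216 and 193 in control. As a share of the summed FPKM of both transporters, Slc2a1 took 27.1% and 24.5% in the combination and 28.5% and 21.8% with talazoparib, against 18.8% and 19.9% with romidepsin and 17.6% and 17.1% in control.

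Hexokinases trap glucose as glucose 6-phosphate. Hk2, the inducible isozyme of many tumours, fell by 0.37 ± 0.08 on the log2 scale (SE, adjusted p = 0.0117), with 219 and 175 CPM in the combination, 196 and 191 with talazoparib, 264 and 285 with romidepsin and 237 and 226 in control. Hk1, the more abundant isozyme here, had 705 and 539 CPM in the combination, 543 and 728 with talazoparib, 962 and 722 with romidepsin and 740 and 957 in control. The libraries of Hk1 overlapped and it did not pass (adjusted p = 0.0614). Its share of the summed hexokinase FPKM was 78.6% to 83.5% with talazoparib and 77.0% to 84.9% without, also overlapping.

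Phosphoglucomutase links glucose 6-phosphate to glucose 1-phosphate and glycogen. The gene listed as Pgm2 in the deposited table has gene ID 72157, which RefSeq's GRCm38.p6 annotation names Pgm1. It stood at 200 and 156 CPM in the combination, 240 and 155 with talazoparib, 263 and 338 with romidepsin and 326 and 267 in control. Its fall of 0.67 ± 0.16 on the log2 scale (SE, adjusted p = 0.0161) did not pass without control 1, romidepsin 2 or combination 2. Its exons share 398 bases with the opposite-strand gene Itgb3bp, and since the sources used here do not say whether counting used strand, reads of such pairs may not be told apart.

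The upper part of glycolysis, from Gpi1 to Tpi1, held 8 members, of which 5 fell, where 13.7% of all genes fell. Gpi1 (gene ID 14751, chromosome 7, 34201327 to 34230336), glucose phosphate isomerase, had 2476 and 2401 CPM in the combination, 2618 and 2052 with talazoparib, 3550 and 4019 with romidepsin and 3748 and 3182 in control. All 4 libraries with talazoparib lay below the others, and the log2 fold change was -0.60 ± 0.09 (SE, adjusted p = 0.00349). Tpi1, triosephosphate isomerase, had 1075 and 948 CPM in the combination, 1283 and 913 with talazoparib, 1516 and 1831 with romidepsin and 1734 and 1498 in control. It fell by 0.64 ± 0.12 on the log2 scale (SE, adjusted p = 0.00675).

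Phosphofructokinase commits sugar to glycolysis, and its subunits come from 3 genes. Pfkp (gene ID 56421, chromosome 13, 6579874 to 6649060), the platelet-type subunit, showed the largest fall of all members, to 601 and 604 CPM in the combination and 664 and 464 with talazoparib, against 1092 and 1237 with romidepsin and 1161 and 1131 in control. Its log2 fold change was -0.99 ± 0.11 (SE, adjusted p = 0.000884), so that its level dropped by 49.6%. Its exons share 748 bases with the opposite-strand gene Pitrm1. Pfkl, the liver-type subunit, fell by 0.50 ± 0.09 (SE, adjusted p = 0.00632), with 409 and 370 CPM in the combination, 459 and 363 with talazoparib, 530 and 608 with romidepsin and 593 and 535 in control. Pfkm, the muscle-type subunit, did not pass (adjusted p = 0.169), at 162 to 213 CPM with talazoparib and 189 to 255 CPM without. Pfkp supplied 46.0% and 47.9% of the summed phosphofructokinase FPKM in the combination and 45.4% and 42.8% with talazoparib, against 56.5% and 54.9% with romidepsin and 54.7% and 56.6% in control. The share of Pfkm was 20.01% to 20.9% with talazoparib and 13.7% to 15.8% without, and that of Pfkl 31.8% to 36.3% and 29.1% to 30.3%. Pfkfb3, whose product makes the phosphofructokinase activator fructose 2,6-bisphosphate, was low in all groups, at 53.2 to 59.3 CPM with talazoparib and 60.6 to 74.2 CPM without, and did not pass (adjusted p = 0.0640).

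Aldolase splits fructose 1,6-bisphosphate. Aldoa had 3564 and 3151 CPM in the combination, 4038 and 2357 with talazoparib, 4990 and 6188 with romidepsin and 5526 and 4277 in control. It fell by 0.68 ± 0.17 (SE, adjusted p = 0.0201), and the call was lost without control 1, romidepsin 2, combination 1 or combination 2. Reads of Aldoa may be split with its near-identical retrogenes Aldoart1 and Aldoart2, which had 3 to 18 reads per library. Aldoc, the brain-type isozyme, had only 20 to 58 reads per library, with 1.53 and 1.89 CPM in the combination, 1.54 and 0.768 with talazoparib, 1.13 and 1.17 with romidepsin and 0.593 and 0.664 in control. It did not pass in the averaged test (adjusted p = 0.0734), and it made up at most 0.0334% of the aldolase FPKM in any library.

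**Figure D3:**
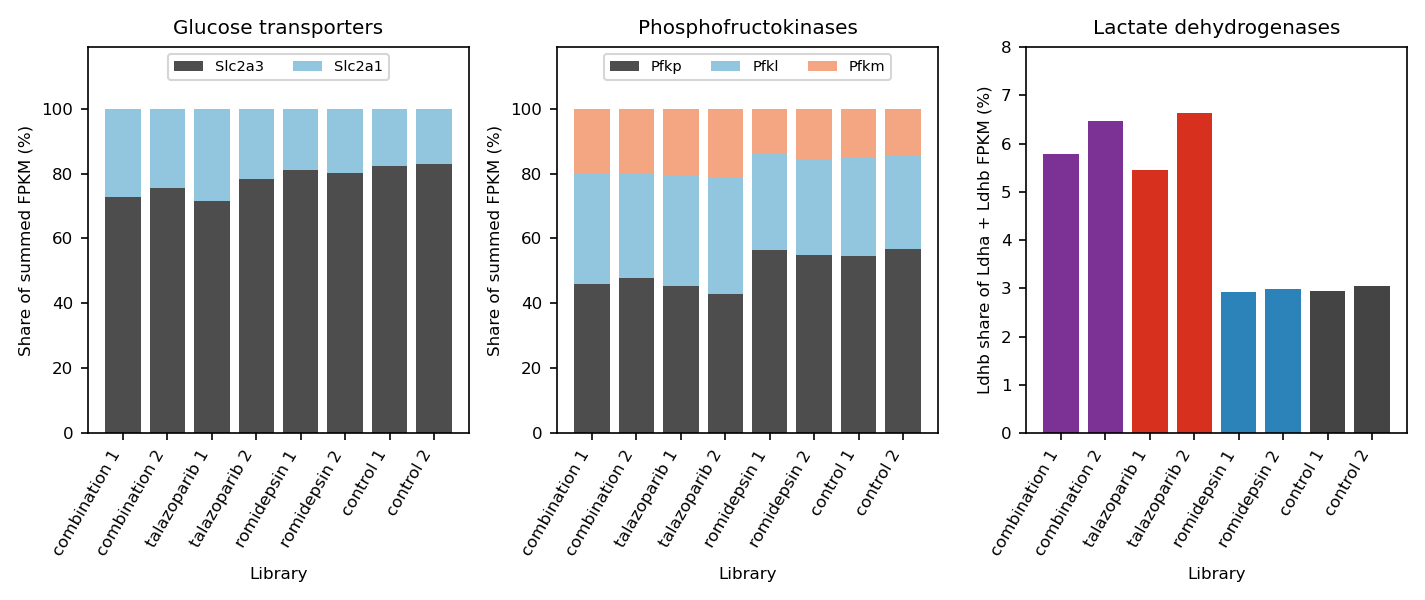
Shares of summed FPKM per library for the glucose transporters (left), the phosphofructokinase subunits (middle) and Ldhb within lactate dehydrogenase (right, bars coloured by group). Pfkp supplied 42.8% to 47.9% with talazoparib against 54.7% to 56.6% without, and Ldhb 5.46% to 6.63% against 2.92% to 3.04%.

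The lower part of glycolysis, where ATP and NADH are made, held 7 members, of which 5 fell and Eno2 rose. Over all genes 13.7% fell and 16.5% rose. In CPM, Gapdh (gene ID 14433, chromosome 6, 125161852 to 125166467) had 3016 and 2940 in the combination, 3490 and 2430 with talazoparib, 4514 and 5389 with romidepsin and 5362 and 4063 in control. It fell by 0.70 ± 0.13 (SE, adjusted p = 0.00703), so that this gene, often used as a constant control, dropped by 38.5% with talazoparib. Pgk1 (gene ID 18655, chromosome X, 106187100 to 106203699), phosphoglycerate kinase, had 2132 and 1808 CPM in the combination, 2382 and 1555 with talazoparib, 3298 and 3870 with romidepsin and 3644 and 2983 in control. Its fall of 0.81 ± 0.14 (SE, adjusted p = 0.00526) was the largest after Pfkp. Talazoparib 2 was the lowest and romidepsin 2 the highest library for this gene.

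Eno1, the main enolase, had 3793 and 3433 CPM in the combination, 4299 and 2980 with talazoparib, 5654 and 6404 with romidepsin and 6200 and 4989 in control, and fell by 0.68 ± 0.12 (SE, adjusted p = 0.00619). Eno1b, a near-identical copy that may share its reads, as may pseudogenes of Gapdh, Pgk1, Ldha and other abundant enzymes, fell by 0.69 on the log2 scale (adjusted p = 0.00758) at 4045 to 11465 reads per library. Pkm, pyruvate kinase, fell by 0.53 ± 0.11 (SE, adjusted p = 0.00928), with 3947 and 3635 CPM in the combination, 4286 and 3146 with talazoparib, 5213 and 6113 with romidepsin and 5520 and 4809 in control. For each of these enzymes the libraries with talazoparib did not overlap the others. Gene counts do not separate the Pkm splice forms. Pgam1, phosphoglycerate mutase, had 1295 and 1128 CPM in the combination, 1454 and 927 with talazoparib, 1669 and 1907 with romidepsin and 1829 and 1472 in control. Talazoparib 1 lay just below control 2, and the fall of 0.52 ± 0.14 (SE, adjusted p = 0.0292) was lost in limma on log2 FPKM and without control 1, either romidepsin library or either combination library.

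The neuronal enolase gene Eno2 stood at 3.61 and 3.28 CPM in the combination, 5.13 and 3.44 with talazoparib, 2.16 and 3.02 with romidepsin and 2.34 and 2.59 in control. It rose by 0.60 ± 0.19 on the log2 scale (SE, adjusted p = 0.0450), a call that was lost with the replicate block and without any library but talazoparib 2. The muscle enolase gene Eno3 did not pass (adjusted p = 0.741), at 12.5 to 15.6 CPM with talazoparib and 12.7 to 14.9 CPM without. Of the summed FPKM of Eno1, Eno2 and Eno3, Eno1 supplied 99.4% to 99.5% with talazoparib and 99.6% to 99.7% without. Eno2 and Eno3 thus hardly entered this total, which leaves out Eno1b.

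Lactate dehydrogenase is a tetramer of A and B subunits; the A form favours lactate production and the B form the reverse reaction. Ldha (gene ID 16828, chromosome 7, 46842274 to 46855627) had 2816 and 2546 CPM in the combination, 3011 and 2343 with talazoparib, 4206 and 4482 with romidepsin and 4358 and 3868 in control. Ldhb (gene ID 16832, chromosome 6, 142490249 to 142507957) had 138 and 140 CPM in the combination, 139 and 133 with talazoparib, 101 and 111 with romidepsin and 105 and 97.0 in control. Neither gene's libraries overlapped between the 4 with and the 4 without talazoparib. Ldha fell by 0.66 ± 0.09 (SE, adjusted p = 0.00207) and Ldhb rose by 0.41 ± 0.06 (SE, adjusted p = 0.00332). The ratio of Ldha to Ldhb FPKM was 16.3 and 14.5 in the combination and 17.3 and 14.1 with talazoparib, against 33.2 and 32.4 with romidepsin and 33.01 and 31.8 in control. Ldha remained the main form in every library, with Ldhb at 5.77% and 6.46% of their summed FPKM in the combination, 5.46% and 6.63% with talazoparib, 2.92% and 2.99% with romidepsin and 2.94% and 3.04% in control.

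Lactate leaves or enters cells through monocarboxylate transporters. Slc16a1, which encodes MCT1, had 196 and 205 CPM in the combination, 147 and 221 with talazoparib, 216 and 189 with romidepsin and 197 and 233 in control, and did not pass (adjusted p = 0.509). Slc16a3, which encodes the hypoxia-linked exporter MCT4, had only 11 to 45 reads per library and did not pass (adjusted p = 0.930).

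Pyruvate dehydrogenase admits pyruvate to the mitochondria's citrate cycle, and its kinases switch it off. Pdha1, its catalytic alpha subunit, had 221 and 217 CPM in the combination, 225 and 225 with talazoparib, 257 and 253 with romidepsin and 261 and 257 in control. The groups did not overlap, but the fall was small, at 0.21 ± 0.05 on the log2 scale (SE, adjusted p = 0.0195), and it was lost without either control, romidepsin 1 or either combination library and in limma on log2 FPKM. Pdha1 exons share 603 bases with the opposite-strand gene Map3k15. The kinase genes did not pass. Pdk1 stood at 486 to 665 CPM with talazoparib and 601 to 713 CPM without (adjusted p = 0.279), and Pdk3 at 139 to 230 CPM with and 169 to 232 CPM without (adjusted p = 0.441).

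In the pentose phosphate pathway none of 3 oxidative members passed and all 3 non-oxidative members fell, Taldo1 only just. Over all genes 13.7% fell and 16.5% rose in this averaged test. G6pdx, glucose-6-phosphate dehydrogenase, the entry enzyme, had 142 and 157 CPM in the combination, 137 and 156 with talazoparib, 148 and 151 with romidepsin and 152 and 152 in control (log2 -0.02 ± 0.07, SE, adjusted p = 0.816). Pgd, the later NADPH-producing enzyme, had 174 and 202 CPM in the combination, 149 and 199 with talazoparib, 178 and 152 with romidepsin and 167 and 184 in control (log2 0.09 ± 0.11, SE, adjusted p = 0.565). Both genes overlapped between the groups. Pgls, the lactonase between them, stood at 75.1 to 82.1 CPM with talazoparib and 68.1 to 72.9 CPM without, with no overlap and a log2 difference of 0.16 ± 0.06, but did not pass (SE, adjusted p = 0.0615). Whether the branches differ in response was not tested. The counts of G6pdx and Pgls are uncertain, since their exons share 418 bases with Ikbkg and 776 bases with Fam129c.

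Rpia (gene ID 19895, chromosome 6, 70765720 to 70792175), the isomerase that makes ribose 5-phosphate, had 31.7 and 36.0 CPM in the combination, 32.6 and 30.2 with talazoparib, 47.2 and 41.3 with romidepsin and 45.3 and 48.8 in control. It fell by 0.48 ± 0.08 on the log2 scale (SE, adjusted p = 0.00422). Tkt (gene ID 21881, chromosome 14, 30549131 to 30574724), transketolase, was among the tightest members, with 727 and 731 CPM in the combination, 713 and 703 with talazoparib, 868 and 908 with romidepsin and 897 and 918 in control. It fell by 0.32 ± 0.05 (SE, adjusted p = 0.00389). Both genes separated all libraries with talazoparib from all without. Taldo1, transaldolase, had 231 and 253 CPM in the combination, 220 and 222 with talazoparib, 276 and 253 with romidepsin and 273 and 255 in control. It passed only just (log2 -0.19 ± 0.06, SE, adjusted p = 0.04999), and the call was lost without any 1 library, in limma on log2 FPKM and with the replicate block.

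Tested alone, talazoparib against control called 8 members: Slc2a3, Gpi1, Pfkp, Pgk1, Ldha, Rpia and Tkt fell and Ldhb rose, where 11.1% of all genes were called, 4.64% lower and 6.43% higher. The combination against romidepsin compares other libraries, but in the same fit over all 8 with a shared estimate of the spread. Its calls are therefore not independent of those above. In it 12 fell and Ldhb rose, where 11.7% of all genes were called, 4.7% lower and 7.01% higher. The 12 were Slc2a3, Hk2, Gpi1, Pfkl, Pfkp, Tpi1, Gapdh, Pgk1, Eno1, Pkm, Ldha and Tkt. The calls shared in direction were 7, which are 87.5% of those for talazoparib against control and 53.8% of those for the combination against romidepsin. In the combination against control, 11 fell and 2 rose, where 17.5% of all genes were called, 7.28% lower and 10.2% higher. The falls were in Slc2a3, Gpi1, Pfkl, Pfkp, Tpi1, Gapdh, Pgk1, Eno1, Ldha, Rpia and Tkt, and Ldhb (0.46) and Aldoc (1.44) rose on the log2 scale. This comparison shares control libraries with that of talazoparib against control.

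These single comparisons rested on few libraries. Where the member counts below changed with a library left out or other groups dropped, the counts over all genes changed in the same direction. Such changes are therefore not particular to the members. The 8 calls for talazoparib against control came to 1 without control 1 or control 2, 4 without talazoparib 2 and 15 without talazoparib 1, and to 1 when only the compared groups entered the fit. The 13 calls of the combination against control came to 1 without control 1, combination 1 or combination 2, to 2 without control 2 and to 8 without either romidepsin library. The 13 calls of the combination against romidepsin came to 1 without romidepsin 2 or combination 2, to 2 without romidepsin 1 or combination 1 and to 4 without either control library. Slc2a3 was the member called in each of the 3 comparisons under all 15 alternatives. In the authors' deposited table at the same threshold, 7 members were lower and 1 higher with talazoparib against control (11.5% of all genes called). For the combination against control 10 were lower and 2 higher (16.2%), and against romidepsin 12 were lower and none higher (12.5%). The genes were not all the same. Tkt was called in none of these, while Gapdh was called with talazoparib against control and Pgm2 in both comparisons of the combination.

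**Figure D4:**
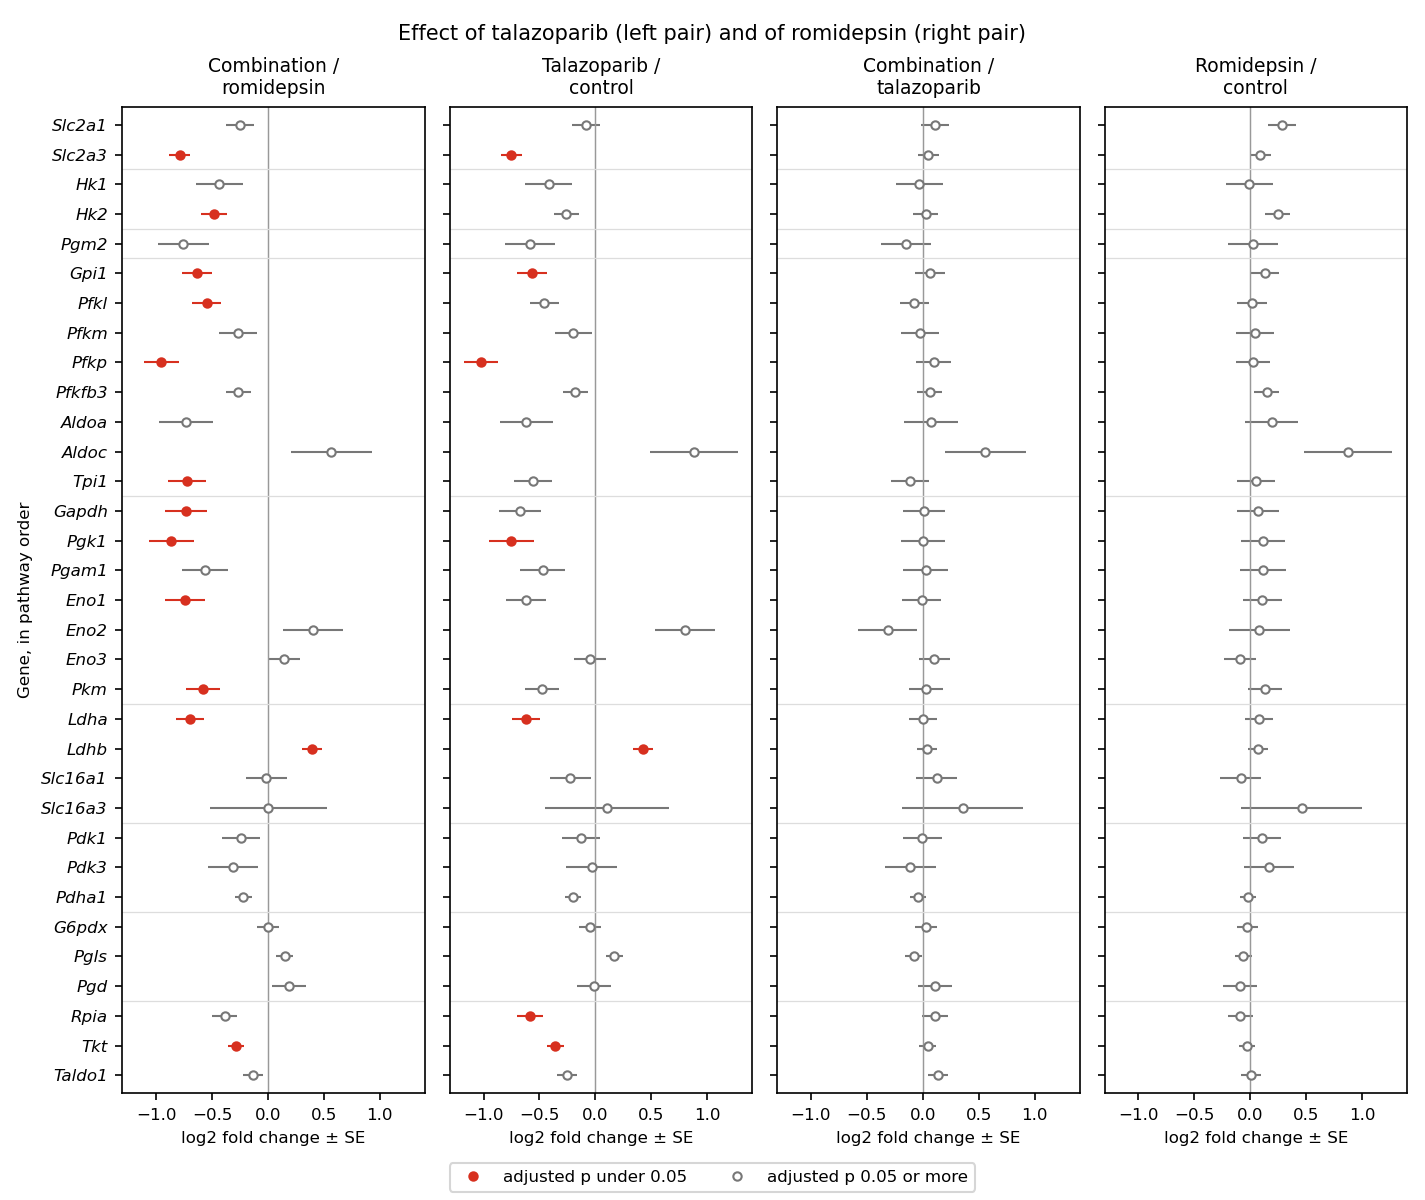
Log2 fold change ± SE (edgeR) of the 33 genes for talazoparib with romidepsin present (combination over romidepsin) and absent (talazoparib over control), then for romidepsin with talazoparib present (combination over talazoparib) and absent (romidepsin over control); filled red points have an adjusted p under 0.05. The left panels hold 13 and 8 called members and the right panels none.

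Romidepsin called no member, alone or on top of talazoparib. In romidepsin against control the median log2 fold change was 0.07 and values ran from -0.09 to 0.87, with adjusted p of 0.940 or more. In the combination against talazoparib the median was 0.03 and values ran from -0.31 to 0.56, with adjusted p of 0.99995. Neither comparison had a member at an unadjusted p under 0.05 in edgeR, and DESeq2 and all other alternatives also called none. Over all genes 0.0251% were called in each. The interaction, which asks whether the log2 effects of the drugs add up, also called no member in edgeR, where 0.0168% of all genes were called. No member had an unadjusted p under 0.05 in it, where 154 of all genes did. With 2 libraries per group these tests do not show that romidepsin left the genes unchanged.

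The spread within groups was itself shared by the members. In talazoparib 1, 26 of 33 members were higher than in talazoparib 2, with a median log2 difference of 0.35 against -0.01 over all genes. For 9 abundant enzymes of the main route the ratio of talazoparib 1 to talazoparib 2 was 1.28 to 1.71 in CPM. Talazoparib 2 was the lowest of the 8 libraries for 21 members, among them 14 of the 18 that fell. How often it was lowest over all genes was not counted. The root mean square log2 difference of the talazoparib libraries was 0.53 over the members and 0.44 over all genes. In the other groups it was smaller over the members, at 0.23 against 0.33 (combination), 0.22 against 0.38 (romidepsin) and 0.20 against 0.33 (control). In the combination 23 members and in control 23 members were higher in library 1, with medians of 0.12 and 0.10, and with romidepsin 24 members were higher in library 2, with a median of -0.13 for library 1 minus library 2. How the calls moved with a library left out is given in the closing sections.

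Of 56 other genes of the same pathways, 41 were in the table and tested. In the averaged test 4 rose and 6 fell, with a median log2 fold change of -0.007, where 16.5% of all genes rose and 13.7% fell. These shares are near or above those of the list, so the genes below are given as single values and not as a result about the pathway. Fbp1, fructose-1,6-bisphosphatase, which runs the phosphofructokinase step backwards, had 297 and 317 CPM in the combination, 269 and 277 with talazoparib, 194 and 196 with romidepsin and 184 and 173 in control, and rose by 0.64 ± 0.06 on the log2 scale (SE, adjusted p = 0.000391). The muscle-type mutase gene Pgam2 rose by 0.75, the D-lactate dehydrogenase gene Ldhd by 0.99 and the transporter gene Slc2a6 by 0.50. The call of Ldhd, at 0.332 to 1.38 CPM, was lost without control 2, romidepsin 2 or combination 1, and that of Slc2a6 without control 1, romidepsin 2, talazoparib 2 or either combination library. The second phosphoglucomutase, listed as Pgm1 in the deposited table, fell by 0.43 and Prps1, which makes phosphoribosyl pyrophosphate from ribose 5-phosphate, by 0.34, with calls that held under all 14 alternatives. The other falls were in Dlat (-0.26) and Dld (-0.31), subunits of pyruvate dehydrogenase, Pgm3 (-0.24) of the hexosamine pathway, and Pck2 (-0.27), mitochondrial phosphoenolpyruvate carboxykinase. All 4 calls were lost in limma. The call of Dlat was also lost without control 2 or combination 1, and that of Dld without either control, romidepsin 1 or combination 2. Pgm3 lost it without control 1, either romidepsin or either combination library, and Pck2 with the replicate block and without any library but talazoparib 1. Ugp2 rose by 0.38 in the combination against control and did not pass in the averaged test. Tigar, which lowers fructose 2,6-bisphosphate, did not pass in any comparison (0.01 ± 0.14 averaged, SE).

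Of 25 tested regulators of these genes, 5 fell and 1 rose in the averaged test, where 13.7% of all genes fell and 16.5% rose. Myc had 72.4 and 91.6 CPM in the combination, 62.0 and 78.0 with talazoparib, 124 and 120 with romidepsin and 118 and 134 in control, and fell by 0.71 ± 0.10 on the log2 scale (SE, adjusted p = 0.00271). Txnip, which restrains glucose uptake, had 298 and 329 CPM in the combination, 257 and 278 with talazoparib, 184 and 148 with romidepsin and 134 and 168 in control, and rose by 0.87 ± 0.10 (SE, adjusted p = 0.00107). For both genes all 4 libraries with talazoparib stood apart from the other 4. Sp1, which binds GC boxes, fell by 0.53, Arnt, the partner of HIF-1 alpha, by 0.38 and the prolyl hydroxylase gene Egln3 by 0.32. The call of Arnt was lost without control 1 and that of Egln3 without control 1 or combination 2. Hif1a did not pass (-0.02 ± 0.08, SE, adjusted p = 0.891), at 183 to 224 CPM with talazoparib and 196 to 221 CPM without.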

How the data were processed

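RNA of 8 libraries (4 groups of 2) was extracted with TRIzol, DNase-treated and sequenced as poly(A) RNA with a stranded kit, per the labels' protocols. Reads were processed with HISAT2 and StringTie on mm10, per the submitters' processing notes; versions and strand settings are not stated there. The authors deposited raw read counts and FPKM per gene, their own normalised log2 values (not used), and, for their comparisons, a signed fold score and adjusted p-values. The table holds only genes with a read in every library, and genes with none in some library are not analysed here.

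Counts were filtered with filterByExpr (minimum count 10), scaled by TMM and tested over all genes with edgeR 4.0.16 in R 4.3.3 (quasi-likelihood, 1 coefficient per group, all 8 libraries, Benjamini-Hochberg threshold 0.05). The biological coefficient of variation was 12.9% with 4 residual degrees of freedom. CPM values use TMM-scaled totals. Isozyme shares use FPKM. Alternatives were DESeq2 1.42.0, limma 3.58.1 on log2(FPKM + 1) or + 0.1, no filter, other size factors, only the compared groups, a replicate block and each library left out. The fit was also run on simulated counts drawn independently for each gene. Those lack the shifts that members share within groups, so they cannot show how the calls stand up to such shifts. Values for every library are given for members that passed in any comparison, and for others where they help. The members and gene lists were chosen with earlier results of these data known. Gene positions and promoters come from RefSeq GRCm38.p6, and exon overlaps from GENCODE M21. A few genes of the further lists are not reported here.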

Additional observations from a re-analysis of the deposited data

How the results depend on the processing

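The count of called members in the averaged test, 20, came to 18 to 21 under the other tools and settings and to 14 to 22 with a library left out. For talazoparib against control (8) it was 15 in DESeq2, 1 when the fit held only the compared groups and 1 to 15 with a library left out. For the combination against control (13) it was 5 in limma with either pseudocount and 1 to 17 with a library left out. For the combination against romidepsin (13) it was 6 in limma with either pseudocount and 1 to 16 with a library left out. The counts of 0 stayed at 0 in all alternatives run. Of 790 values for single called genes, 547 kept their call, 243 lost it and 0 changed sign. The labels link libraries with the same number by that number alone, and whether they share more is not stated. Their deviations from the group means correlated at -0.33 to 0.29 over all genes and at -0.66 to 0.48 over the members. With the replicate block the counts were 18 for the averaged test, 8 for talazoparib against control, 11 for the combination against control and 9 for the combination against romidepsin. Over all genes, talazoparib against control called 1321 genes, 860 with the block, 296 with only the compared groups and 143 without control 1. For the same comparison DESeq2 called 1828 genes. The averaged test called 3605 of all genes, 3205 with the block and 3856 in DESeq2. Its total also moved with a library left out. The combination against control called 2091 genes, and 2008 in limma on log2(FPKM + 1). The combination against romidepsin called 1397, and 1446 in that limma fit. Counts of members are to be read beside these totals, which also move with the setting. With 2 libraries per group, small changes are hard to detect.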

Other observations

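A list of 20 symbols of known HIF-1 targets, 19 of them tested, is set beside the glycolysis genes as a description. It was meant to lie outside glycolysis but holds Pfkfb4, which is also among the other pathway genes. The untested symbol, Ero1a, is another name of the tested Ero1l. In the averaged edgeR test 5 fell and none rose, with a median log2 fold change of -0.36, where 13.7% of all genes fell. The single comparisons called 1 lower for talazoparib against control, 1 for the combination against control and 2 for the combination against romidepsin, where 4.64%, 7.28% and 4.7% of all genes were lower. The counts for both comparisons against control are thus near or below the share over all genes. Ddit4, an inhibitor of mTORC1 induced by hypoxia and stress, had 286 and 276 CPM in the combination, 318 and 235 with talazoparib, 479 and 668 with romidepsin and 522 and 406 in control, and fell by 0.89 ± 0.14 on the log2 scale (SE, adjusted p = 0.00363). Ero1l, an oxidase of the endoplasmic reticulum, had 1096 and 729 CPM in the combination, 1181 and 679 with talazoparib, 1846 and 2233 with romidepsin and 1963 and 1448 in control, and fell by 1.02 ± 0.20 (SE, adjusted p = 0.00839). Neither gene's libraries overlapped between those with and those without talazoparib, and both calls held under all 14 alternatives. The collagen prolyl hydroxylase genes P4ha1 (-0.43) and P4ha2 (-0.57) also fell, but both calls were lost in limma and without control 1, romidepsin 2, talazoparib 2 or combination 2. Egln3, also counted among the regulators, was the fifth.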
